A study of Macaca fascicularis with 6 samples.

Results

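In cynomolgus monkey oocytes, 17 of the 28164 genes in the count table took a far larger share of counts in mature than immature oocytes. This held by either route of maturation, in vitro or in vivo. The genes encode the meiotic arrest factor FBXO43, the centromere histone CENPA, the RNA-binding protein CPEB2 and the tailing cofactor ZCCHC14. They also include the kinase genes PRKACB and PIM1 and the transcription genes LEF1, NFE2L3 and MED30. The other 8 are genes of signalling, protein turnover, caspase inhibition, sugar metabolism and the membrane. Levels are counts per 1000000 counts of the library (CPM). Members were chosen by these levels: a gene entered when the lowest of its 4 mature values was at least 10 CPM and at least 4 times the higher of its 2 immature values. Genes whose names begin with 1 of 14 prefixes, among them unnamed loci and large families, were left out, which removed 2 genes and left 15901 that could be chosen. The differences between mature and immature oocytes therefore chose the members and are given as a description, with no test.

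The 3 groups were oocytes at metaphase II after maturation in vitro (IVM MII), oocytes at metaphase II after maturation in vivo (IVO MII), and oocytes at the germinal vesicle stage (GV), before meiosis resumes. Each group had 2 libraries, and all oocytes were labelled as stripped, wild type and not treated. Culture conditions, hormone stimulation, ages of the animals, and how many oocytes and animals made up a library are not stated in the sources. The spread between the 2 libraries of a group may therefore be technical.

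A fully grown oocyte makes almost no new RNA and instead draws on messages stored during growth. Many stored messages carry short poly(A) tails and are silent until meiosis resumes, when proteins of the CPEB family bind elements in their 3′ ends and the tails are lengthened. Other messages lose their tails and are degraded over the same period. These libraries were primed with oligo-dT, so more RNA of a gene per oocyte and a larger share of its molecules with a tail long enough to be primed cannot be told apart. Because CPM is a share of the library's counts, it also rises when other messages fall, and that cannot be told apart here either. No protein was measured.

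Library totals were 35515139 and 33875153 counts in IVM MII, 27707021 and 29354497 in IVO MII, and 31421282 and 32777458 in GV, so the GV libraries lay between those of the other groups. As a sum, landmark oocyte genes were abundant in all 6 libraries, with 39879 to 43817 CPM in the MII libraries and 55420 and 60468 CPM in GV. DPPA3 alone had 7282 to 12939 CPM across the libraries. The list also holds the member FBXO43, at 51.0 CPM or less in every library. Single genes of the list were low, with NOBOX at 8.88 CPM or less and SOHLH1 at 0.397 CPM or less in every library. Of 25 cumulus and granulosa genes in the table, 19 were under 1 CPM in every library, and the defining genes FOXL2, INHA and AMHR2 had no count in any. The summed level of that list was 434 and 228 CPM in IVM MII, 246 and 330 CPM in IVO MII, and 252 and 216 CPM in GV, and most of it was SERPINE2. Of the 7 genes of the list that could be tested, 3 rose and 0 fell in IVM MII over GV by edgeR. Their median log2 fold change was 1.72. Of all genes tested, 25.6% rose and 24.7% fell in that contrast. In IVO MII over GV 1 of the 7 rose and 1 fell, beside 28.1% and 30.5% of all genes tested. Between the routes 3 were higher in IVM MII and 0 were lower, beside 14.3% and 10.3% of all genes tested. GREM1 had 39.9 and 26.3 CPM in IVM MII and 4.51 and 3.20 CPM in IVO MII, against 4.77 and 2.56 CPM in GV. RUNX2 had 9.77 and 7.41 CPM in IVM MII and 1.77 and 1.94 CPM in IVO MII, against 1.46 and 2.20 CPM in GV. Both were thus high in the IVM MII libraries alone. HAS2, on the same list, was above both GV libraries in all 4 MII libraries, as the members were. Its values were 24.7 and 17.8 CPM in IVM MII, 11.8 and 31.7 CPM in IVO MII, and 4.74 and 4.42 CPM in GV. The part of cumulus RNA in the members' MII values was not tested. The summed levels of the lists of theca, stroma and endothelium and of blood cells were lower in all 4 MII libraries than in both GV libraries, at 269 to 361 against 428 and 445 CPM and at 4.46 to 8.84 against 13.2 and 13.1 CPM. Most of these sums in GV was VWF and CSF1R, and other listed genes ran the other way, such as TEK with 150 and 147 CPM in IVM MII and 179 and 167 CPM in IVO MII, against 110 and 85.1 CPM in GV.

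The members together took 985 and 867 CPM in the IVM MII libraries and 768 and 878 CPM in the IVO MII libraries, against 133 and 114 CPM in the GV libraries. The mean of the IVM MII libraries was 4.87 to 11.7 times the GV mean, with a median over members of 7.05. For IVO MII the mean was 4.81 to 14.8 times the GV mean, with a median of 5.76. These ratios share the GV libraries. By the rule, all 17 had both IVM MII and both IVO MII libraries above both GV libraries, as did 48.2% of all genes tested for IVM MII and 40% for IVO MII. Every member had at least 377 counts in each MII library and 46 to 654 counts in each GV library, so none was scored against an empty group. IVM MII alone would have chosen 85 named genes and IVO MII alone 138, of which the 17 shared genes are 20% and 12.3%.

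**Figure D1:**
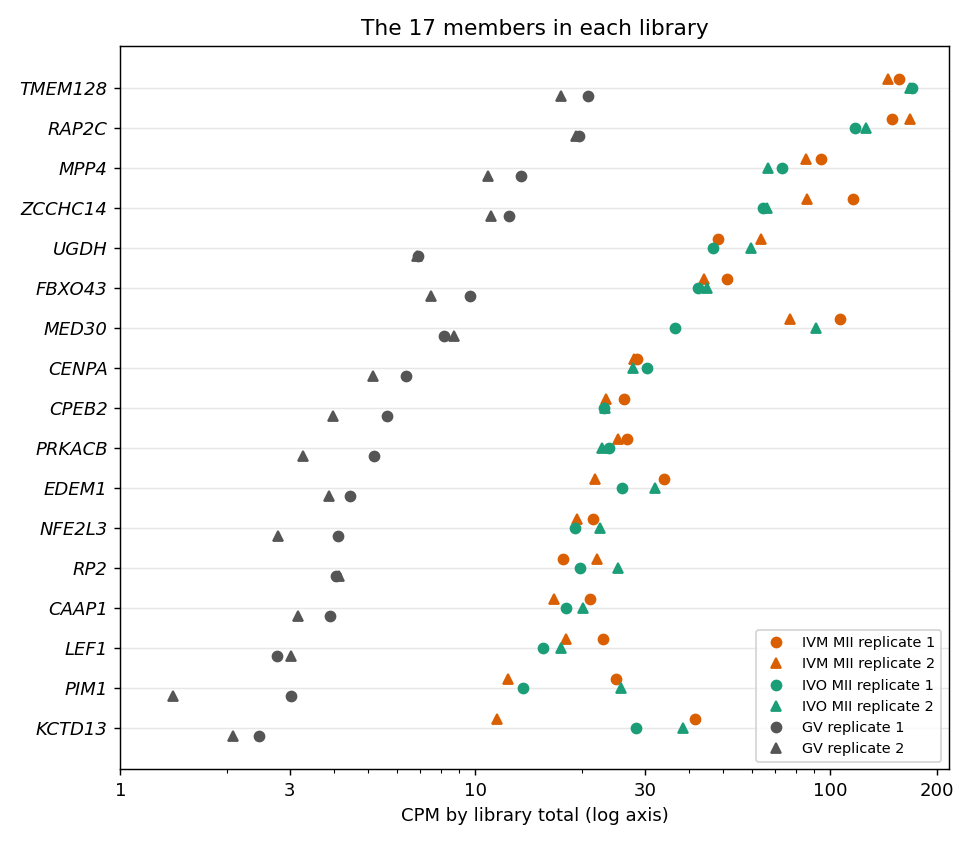
Level of each of the 17 members in each of the 6 libraries, in CPM on a logarithmic axis, with the groups IVM MII, IVO MII and GV marked by colour. The 4 MII values of each gene lie right of its GV values, and KCTD13, MED30 and PIM1 have the widest gaps between libraries of 1 group.

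FBXO43, also known as EMI2, inhibits the anaphase-promoting complex and holds the vertebrate egg at metaphase II until fertilization. Its level was 51.0 and 44.1 CPM in IVM MII and 42.5 and 44.9 CPM in IVO MII, against 9.67 and 7.51 CPM in GV (macFas5 chromosome 8, 101279369 to 101291491). The MII libraries fell within a narrow band, and their means were 5.54 and 5.09 times the GV mean for IVM MII and IVO MII. In the related inhibitor FBXO5, or EMI1, the groups overlapped, with 190 and 188 CPM in IVM MII, 135 and 96.7 CPM in IVO MII, and 199 and 126 CPM in GV. Per kilobase of exon, FBXO43 averaged 14.7 CPM in IVM MII, 13.5 CPM in IVO MII and 2.66 CPM in GV.

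CENPA is the histone H3 variant that marks the centromere and on which the kinetochore is built (chromosome 13, 84084038 to 84100481). It had 28.5 and 27.9 CPM in IVM MII and 30.4 and 27.8 CPM in IVO MII, against 6.40 and 5.16 CPM in GV. Scaled by library totals, all 4 MII values lay within a few CPM of each other. The IVM MII libraries differed 1.02 times, their tightest agreement for any member. With TMM factors, other members such as FBXO43 and CPEB2 agreed more closely between these libraries. Of the genes compared for proteins that place CENP-A or bind its nucleosome, MIS18A, OIP5 and CENPC were above both GV libraries in all 4 MII libraries. MIS18A, a subunit of the complex that licenses CENP-A loading, had 304 and 156 CPM in IVM MII and 288 and 275 CPM in IVO MII, against 62.0 and 67.4 CPM in GV. The CENP-A chaperone HJURP was above GV in IVO MII and overlapped with GV in IVM MII. Its values were 467 and 293 CPM in IVM MII, 486 and 621 CPM in IVO MII, and 382 and 453 CPM in GV.

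PRKACB encodes a catalytic subunit of protein kinase A, the cAMP-dependent kinase whose activity keeps the GV oocyte in prophase arrest (chromosome 1, 143012121 to 143177501). It had 26.8 and 25.2 CPM in IVM MII and 23.8 and 22.8 CPM in IVO MII, against 5.19 and 3.26 CPM in GV. PRKACA, which encodes the other widely used catalytic subunit, was at 0.253 CPM or less in every library. PRKAR1A, a regulatory subunit that holds the catalytic subunits inactive until cAMP binds, had 132 and 108 CPM in IVM MII and 129 and 141 CPM in IVO MII, against 60.1 and 54.9 CPM in GV. Both PRKACB and PRKAR1A were thus above GV in all 4 MII libraries, by unequal ratios.

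CPEB2 is a paralogue of CPEB1, the protein that binds the cytoplasmic polyadenylation element in stored messages (chromosome 5, 14101270 to 14167511). Its level was 26.3 and 23.4 CPM in IVM MII and 23.0 and 23.2 CPM in IVO MII, against 5.63 and 3.97 CPM in GV. It had the lowest ratio of all members, 4.08 between its lowest MII and its higher GV value. The other CPEB genes were also above GV in every MII library, by smaller ratios. CPEB4 had 84.6 and 82.7 CPM in IVM MII and 87.3 and 94.0 CPM in IVO MII, against 27.9 and 19.3 CPM in GV. CPEB3 had 15.0 and 12.01 CPM in IVM MII and 24.8 and 21.7 CPM in IVO MII, against 8.75 and 6.68 CPM in GV. CPEB1 had 912 and 638 CPM in IVM MII and 670 and 830 CPM in IVO MII, against 306 and 298 CPM in GV. Per kilobase of exon, CPEB1 averaged 205 CPM in IVM MII, 199 CPM in IVO MII and 80.0 CPM in GV, far above the 3.70, 3.44 and 0.716 CPM of CPEB2 in those groups.

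ZCCHC14 is a zinc-knuckle protein that in human cells brings the TENT4 tailing enzymes to viral RNA (chromosome 20, 75773527 to 75861496). It had 115 and 85.7 CPM in IVM MII and 64.5 and 66.4 CPM in IVO MII, against 12.5 and 11.04 CPM in GV. The TENT4 enzymes, listed under their older names PAPD7 and PAPD5, were above GV in all 4 MII libraries as well. PAPD7 had 652 and 512 CPM in IVM MII and 783 and 1028 CPM in IVO MII, against 197 and 164 CPM in GV. PAPD5 was at 54.0 and 41.2 CPM in IVM MII and 59.0 and 54.9 CPM in IVO MII, against 17.7 and 17.9 CPM in GV. For both enzyme genes the IVO MII libraries were above the IVM MII libraries, the reverse of the order seen for ZCCHC14.

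Of the signalling members, RAP2C encodes a small GTPase of the Ras family (chromosome X, 129097331 to 129113642). It had 149 and 167 CPM in IVM MII and 117 and 126 CPM in IVO MII, against 19.6 and 19.2 CPM in GV. Scaled by library totals, the IVM MII values all lay above the IVO MII values, and both lay far above GV. With TMM factors the MII routes overlapped. Its close relative RAP2A was above GV in all MII libraries by a ratio of 2.13, as was RAP1A by 1.85, while RAP1B overlapped with GV. RAP2B was above GV in IVO MII alone, with 35.7 and 38.6 CPM. In IVM MII RAP2B had 10.6 and 15.0 CPM, against 14.2 and 21.1 CPM in GV.

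PIM1 encodes a serine/threonine kinase known from growth factor signalling in blood cells (chromosome 4, 133543619 to 133548777). Its values were 24.9 and 12.4 CPM in IVM MII and 13.6 and 25.7 CPM in IVO MII, against 3.02 and 1.40 CPM in GV. The libraries of each group differed 1.89 to 2.15 times, so the size of its difference from GV is among the least well measured. Its lowest count, 46 in a GV library, was the lowest of any member and has a 95% Poisson interval of 1.03 to 1.87 CPM, which covers counting error only. The relative PIM3 had the same order of libraries within the MII groups, with 42.5 and 13.8 CPM in IVM MII and 32.7 and 53.5 CPM in IVO MII, against 5.54 and 5.28 CPM in GV.

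KCTD13 is an adaptor that brings the small GTPase RhoA to the CUL3 ubiquitin ligase (chromosome 20, 28394784 to 28415377). It had 41.4 and 11.5 CPM in IVM MII and 28.3 and 38.4 CPM in IVO MII, against 2.45 and 2.07 CPM in GV. The IVM MII libraries differed 3.61 times, the widest gap of any member within a group, and the lower of them set its place just above the level threshold. CUL3 itself was not above GV in all MII libraries, with 55.8 and 51.7 CPM in IVM MII, 29.5 and 29.3 CPM in IVO MII, and 51.5 and 36.2 CPM in GV.

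LEF1 is a DNA-binding factor through which Wnt signals reach their target genes (chromosome 5, 107434031 to 107560861). It had 22.9 and 17.9 CPM in IVM MII and 15.5 and 17.5 CPM in IVO MII, against 2.77 and 3.02 CPM in GV. The MII and GV values were well apart, and the ratio was 5.14. Its relative TCF7 had 5.41 and 2.63 CPM in IVM MII and 2.82 and 4.16 CPM in IVO MII, against 1.02 and 1.31 CPM in GV, and TCF7L1 had at most 1 count in any library.

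NFE2L3, a leucine zipper factor of the NFE2 family, lies on chromosome 3 from 94591794 to 94622734. It had 21.4 and 19.3 CPM in IVM MII and 19.1 and 22.5 CPM in IVO MII, against 4.11 and 2.78 CPM in GV. The relatives NFE2L2, the factor of the oxidative stress response, and NFE2L1 were above GV in all 4 MII libraries by ratios of 2.73 and 1.66 between the lowest MII and the higher GV value. In these relatives too, the MII libraries all lay above GV.

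MED30 is a subunit of Mediator, the complex that links transcription factors to RNA polymerase II (chromosome 8, 118816573 to 118836183). It had 107 and 77.2 CPM in IVM MII and 36.5 and 91.0 CPM in IVO MII, against 8.15 and 8.73 CPM in GV. The IVO MII libraries differed 2.50 times, and the lower of them set its ratio of 4.18. The other Mediator genes were mixed. Of 27 in the table, 10 were above both GV libraries in all MII libraries and 7 were below both. The highest ratio, 2.64, was at MED13. The 10 lay near the share of all genes with at least 1 CPM in GV or in all MII libraries, 36.8%. No such share was counted for genes below both GV libraries.

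UGDH encodes the enzyme that makes UDP-glucuronate, the precursor of hyaluronan and other glycosaminoglycans (chromosome 5, 39130776 to 39160528). It had 48.1 and 63.7 CPM in IVM MII and 46.7 and 59.9 CPM in IVO MII, against 6.87 and 6.86 CPM in GV. It was therefore higher in every MII library than in either GV library, by a ratio of 6.79. UXS1, which turns UDP-glucuronate into UDP-xylose, and the hyaluronan synthases HAS2 and HAS3 were also above GV in all 4 MII libraries, while UGP2, which makes the UDP-glucose that UGDH uses, overlapped. HAS2, a gene well known from cumulus cells, had 24.7 and 17.8 CPM in IVM MII and 11.8 and 31.7 CPM in IVO MII, against 4.74 and 4.42 CPM in GV, and the part of cumulus RNA in these values was not tested.

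EDEM1 takes misfolded glycoproteins out of the folding cycle of the endoplasmic reticulum for degradation (chromosome 2, 136067939 to 136100622). It had 33.9 and 21.7 CPM in IVM MII and 25.8 and 32.1 CPM in IVO MII, against 4.42 and 3.87 CPM in GV. EDEM2 was above GV in all MII libraries too, with 99.7 and 67.9 CPM in IVM MII and 47.2 and 96.4 CPM in IVO MII, against 17.8 and 33.3 CPM in GV. EDEM3 was at 0.214 CPM or less in every library.

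TMEM128, a transmembrane protein, had the largest ratio of its lowest MII to its higher GV value among members when levels were scaled by library totals (chromosome 5, 8778835 to 8791624). It had 156 and 145 CPM in IVM MII and 170 and 168 CPM in IVO MII, against 20.8 and 17.4 CPM in GV. That ratio was 6.97, beside 5.99 for RAP2C, and with TMM scaling it was 5.76 for TMEM128 and 5.77 for RAP2C. By group means, KCTD13 had the largest ratios to GV, 11.7 for IVM MII and 14.8 for IVO MII. Levels per kilobase of exon can be set beside those of other genes. On that scale TMEM128 averaged 119 CPM in IVM MII, 134 CPM in IVO MII and 15.1 CPM in GV. These were the highest values of the members in each group.

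MPP4 is a scaffold protein of the membrane-associated guanylate kinase family known from photoreceptors (chromosome 12, 91058156 to 91113880). It had 94.0 and 85.6 CPM in IVM MII and 73.2 and 66.7 CPM in IVO MII, against 13.4 and 10.8 CPM in GV. MPP1, of the same family, ran the other way, with 20.3 and 14.4 CPM in IVM MII and 13.1 and 10.7 CPM in IVO MII, against 80.3 and 112 CPM in GV. Genes of this family thus lay in both directions.

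RP2 is the GTPase-activating protein of the cilium GTPase ARL3 and is mutated in a form of X-linked retinitis pigmentosa (chromosome X, 45249931 to 45297966). It had 17.7 and 22.02 CPM in IVM MII and 19.7 and 25.2 CPM in IVO MII, against 4.04 and 4.12 CPM in GV. ARL3 was not above GV in every MII library, with 19.9 and 21.1 CPM in IVM MII, 7.22 and 13.5 CPM in IVO MII, and 15.0 and 18.5 CPM in GV. CAAP1, an inhibitor of caspase activity, lies on chromosome 15 from 51898428 to 51951923. It had 21.0 and 16.7 CPM in IVM MII and 18.05 and 20.1 CPM in IVO MII, against 3.88 and 3.17 CPM in GV. In RP2 and CAAP1 the MII routes overlapped with each other and both lay above GV.

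The relatives and partners above were chosen with the members known and are given as levels without a test. Of 76 such genes in the table, 62 had at least 1 CPM in GV or in all MII libraries. Of these 62, 35 were above both GV libraries in all 4 MII libraries and 8 were below both. Of all genes in the table with at least 1 CPM in GV or in all MII libraries, 36.8% were above in the same way. Of the named genes among these, the kind to which the relatives belong, 3828 of 9406 were above. No such share was counted for genes below both GV libraries. The highest ratio was 2.96 for CPEB4, and a named relative of at least 10 CPM with a ratio of 4 would itself have been a member. MPP6 was among those 35 only when levels were scaled by library totals.

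**Figure D2:**
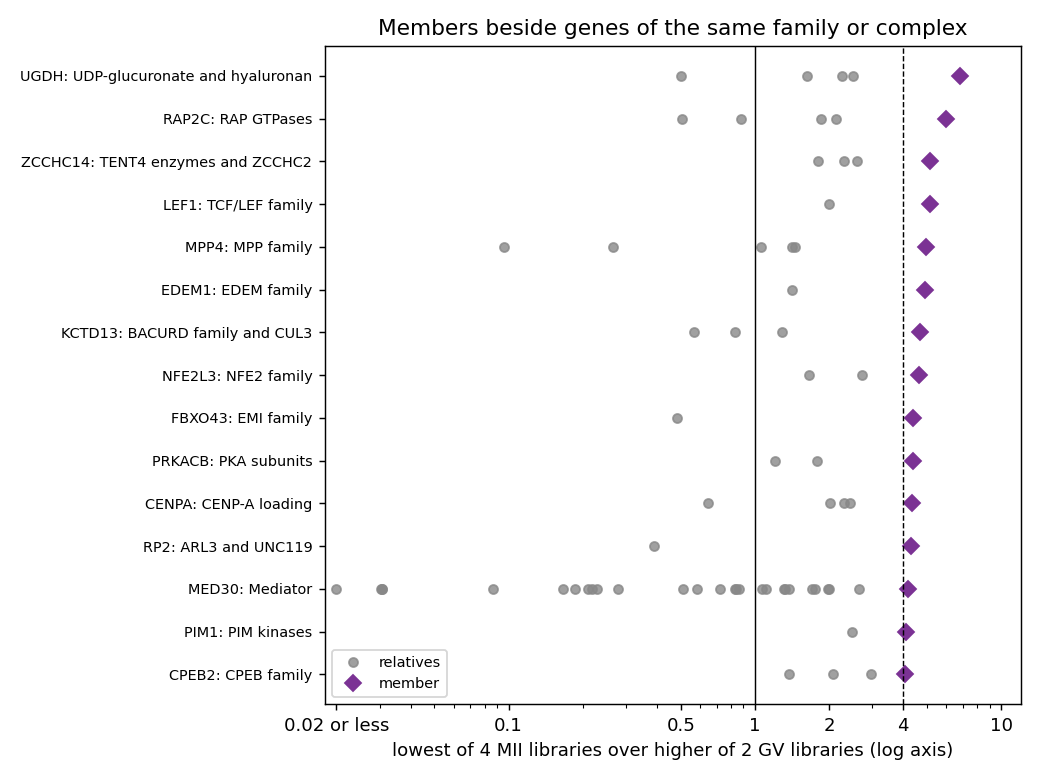
Ratio of the lowest MII value to the higher GV value, on a logarithmic axis, for the 15 members with relatives or partners compared, and for those relatives with at least 1 CPM in GV or in all MII libraries. The relatives reach up to 2.96 and fall on both sides of 1, whereas the members lie at 4.08 or more by their choice.

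Several members and non-members lay close to the thresholds. The members just inside the ratio threshold were CPEB2 at 4.08, PIM1 at 4.10, MED30 at 4.18 and RP2 at 4.30. CRLS1, BCL2L11, KMT2E and IL23A lay just below it. CRLS1, which makes the mitochondrial lipid cardiolipin, had 151 and 117 CPM in IVM MII and 93.4 and 104 CPM in IVO MII, against 23.4 and 18.9 CPM in GV. At the level threshold, the lowest MII value was 11.5 CPM for KCTD13, 12.4 CPM for PIM1, 15.5 CPM for LEF1 and 16.7 CPM for CAAP1. Below it were ITGAV at 9.51 CPM, INPP5E at 7.62 CPM and JPH1 at 7.32 CPM. An exact 95% interval for the ratio of counts lay above 4 for 7 members, TMEM128, RAP2C, MPP4, ZCCHC14, UGDH, EDEM1 and LEF1, and held 4 for the other 10. These intervals cover counting error only and not the spread between libraries. They use the same lowest MII and higher GV values by which the members were chosen, with no allowance for that choice. They are therefore a description and no test of the threshold.

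**Figure D3:**
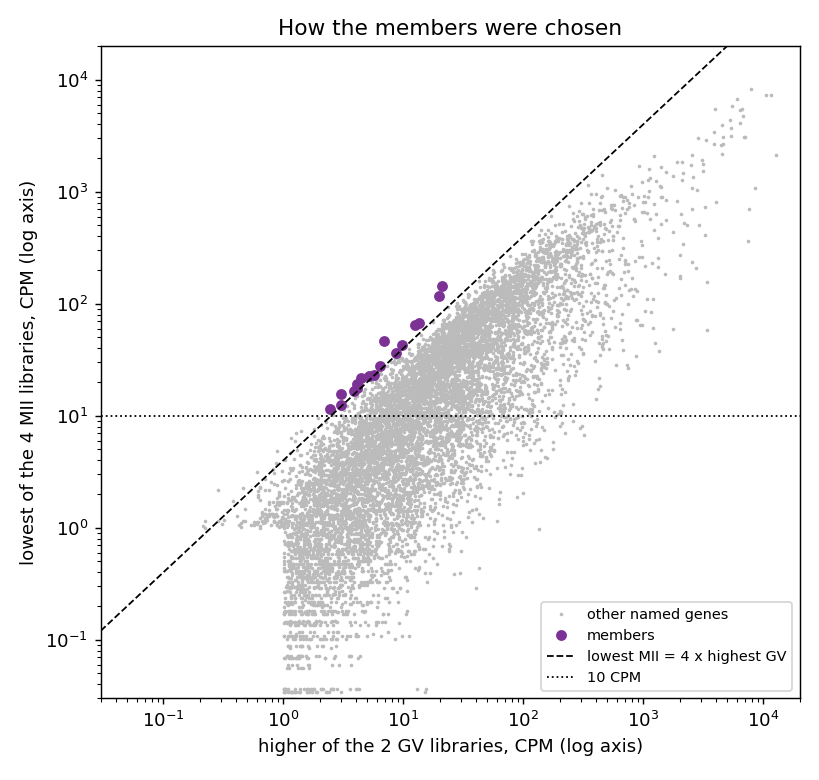
Lowest of the 4 MII values against the higher of the 2 GV values, both in CPM on logarithmic axes, for the 9306 of 9406 named genes of the plot with a count in both. The 17 members, in colour, lie above the lines for 10 CPM and for a ratio of 4, close to the ratio line for most.

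Scaling also mattered. TMM factors, which set libraries on a common scale by their less variable genes, ran from 0.903 to 1.22 and were highest in IVM MII. With TMM-scaled levels 11 genes met the rule, all of them members. CENPA, CPEB2, PRKACB, RP2, CAAP1 and PIM1 fell below the ratio of 4, at 3.19 to 3.97. FBXO43 and NFE2L3 stayed just above it, at 4.05 and 4.01. With RLE factors, another such scaling, these 2 fell below as well, at 3.88 and 3.84, and CRLS1 met the rule at 4.05. Leaving out a library enlarges the list by construction, to 18 genes without IVM MII library 1 and to 108 without GV library 1.

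Between the maturation routes no member was called different. That contrast was not used to choose them, but the rule needed high values by both routes, which limits the difference a member can show. With edgeR's quasi-likelihood test and Benjamini-Hochberg adjustment over 15815 genes, 0 of the 17 were called at an adjusted p of 0.05, where 24.6% of all genes tested were called. Higher in IVM MII were 14.3% and lower were 10.3%. No member, 0 of 17, had an unadjusted p under 0.05, and DESeq2 and limma-voom called 0 as well, also unadjusted. The log2 fold changes of IVM MII over IVO MII ran from -0.60 to 0.39 with a median of -0.12, beside 0.02 for all genes, and their median size was 0.24 beside 0.58.

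ZCCHC14 had the largest positive value, 0.39 ± 0.21 (SE, 2 libraries a group), with a 95% interval of -0.06 to 0.85 and an adjusted p of 0.191 by edgeR. TMEM128 was at -0.38 ± 0.21, with an interval of -0.84 to 0.07 and an adjusted p of 0.202 by edgeR. RAP2C at 0.18 ± 0.22 and MPP4 at 0.14 ± 0.22 had both IVM MII libraries above both IVO MII libraries in CPM. Values nearest 0 were -0.06 ± 0.26 for PRKACB, 0.08 ± 0.24 for LEF1, -0.10 ± 0.22 for FBXO43 and -0.11 ± 0.24 for CPEB2. For PRKACB an interval of -0.62 to 0.51 allows a difference of that size in either direction, so these values do not show that the routes gave equal levels. In CPM, 6 members had both IVM MII libraries above both IVO MII libraries and 1, TMEM128, had both below, beside 40.9% and 20.7% of all genes tested. Among the 6 were CPEB2 and PRKACB, whose log2 fold changes with TMM scaling were below 0, so their direction depended on the scaling. These counts used library totals. With levels divided by the TMM factors, of the 6 only ZCCHC14 kept both IVM MII libraries above both IVO MII libraries. RAP2C, MPP4, LEF1 and PRKACB then overlapped, while CPEB2, CENPA, FBXO43, NFE2L3 and CAAP1 joined TMEM128 below. The share of all genes in each order with that scaling was not counted.

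A single library decided 2 calls. KCTD13 was at -0.60 ± 0.40 with an adjusted p of 0.296 by edgeR, and without IVM MII library 1 it was at -1.61 with an adjusted p of 0.0105. MED30 was at 0.32 ± 0.32 with an adjusted p of 0.505 by edgeR, and without IVO MII library 2 it was at 1.06 with an adjusted p of 0.0138. Both are members whose libraries of 1 group stood far apart. In 10 of the 17 members, IVM MII library 1 was above library 2 and IVO MII library 2 was above library 1, a pattern found in 40.7% of all genes tested. Scaling by library totals moved the median of all genes to 0.24 and the share of calls that were higher in IVM MII to 75.8%, beside 58.0% with TMM, and 0 members were called under either.

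**Figure D4:**
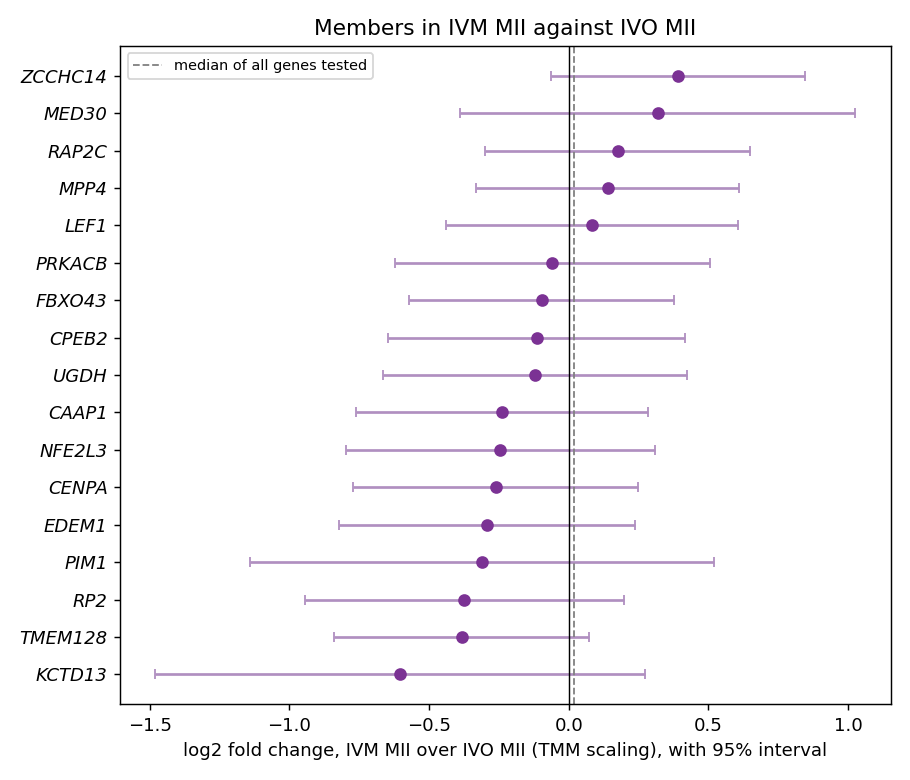
Log2 fold change of IVM MII over IVO MII for each member, with its 95% interval from the edgeR fit across all genes and a line at 0. Every interval includes 0, with the estimates between -0.60 for KCTD13 and 0.39 for ZCCHC14.

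The members were compared with all genes in size and place. Their exonic lengths ran from 982 to 8751 bases with a median of 3335, beside 2974 for all genes tested, and they had 4 to 21 merged exons with a median of 6, beside 8. They lay on 11 chromosomes, 4 of them on chromosome 5, and none shared exonic bases with another listed gene, which matters because counting did not use strand. Of the 68 genes that flank them, 2 on each side, 36 had at least 1 CPM in GV or in all MII libraries. Of these 0 reached the ratio of 4 and 12, or 33.3%, had all MII values above GV, beside 0.340% and 36.8% of 13242 such genes in the table.

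Of 7 function lists, 3 held a member. The list of cytoplasmic polyadenylation and masking factors, which holds CPEB2, had 38 other genes tested. In IVM MII over GV 18 rose and 10 fell, where 25.6% of all genes rose and 24.7% fell, and in IVO MII over GV 19 rose and 10 fell, where 28.1% rose and 30.5% fell. Their median log2 fold changes were 0.56 and 0.67, beside 0.06 and -0.07 for all genes. EIF4E1B, the oocyte form of the cap-binding protein, rose by both routes, with 112 and 71.5 CPM in IVM MII and 95.1 and 103 CPM in IVO MII, against 24.8 and 27.8 CPM in GV (edgeR adjusted p 0.000325 and 5.42e-05). CSTF1, a subunit of the cleavage stimulation factor, fell by both routes, with 119 and 125 CPM in IVM MII and 174 and 155 CPM in IVO MII, against 610 and 654 CPM in GV (edgeR adjusted p 9.35e-06 and 3.57e-05). Between the routes 2 of the 38 were higher in IVM MII and 6 were lower, beside 14.3% and 10.3% of all genes.

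Messages known to be activated in maturing mouse or frog oocytes, a list that holds FBXO43, had 43 other genes tested. In IVM MII over GV 16 rose and 5 fell, and in IVO MII over GV 24 rose and 9 fell, with median log2 fold changes of 0.36 and 0.75. All genes tested had medians of 0.06 and -0.07, with 25.6% higher and 24.7% lower in IVM MII over GV and 28.1% higher and 30.5% lower in IVO MII over GV. Without GV library 2 the 16 became 9. DCP1A, a decapping cofactor, rose by both routes, with 127 and 102 CPM in IVM MII and 142 and 134 CPM in IVO MII, against 37.9 and 27.9 CPM in GV (edgeR adjusted p 0.000286 and 3.02e-05). CCNB2, a B-type cyclin, fell in IVO MII, with 167 and 168 CPM against 645 and 609 CPM in GV (edgeR adjusted p 3.54e-05). Between the routes, with a median of -0.36, 5 of the 43 were higher in IVM MII and 8 were lower, beside 14.3% and 10.3% of all genes.

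Cell cycle kinases, cyclins and regulators, the other function list that holds FBXO43, had 61 other genes tested. Their median log2 fold changes were 0.06 in IVM MII over GV and 0.02 in IVO MII over GV. Their counts lay near the shares of all genes called, with 16 higher and 13 lower in IVM MII over GV, 21 higher and 18 lower in IVO MII over GV, and 8 higher and 5 lower in IVM MII over IVO MII. Of all genes tested, 25.6% were higher and 24.7% lower in IVM MII over GV, 28.1% higher and 30.5% lower in IVO MII over GV, and 14.3% higher and 10.3% lower in IVM MII over IVO MII. SKP2, the substrate receptor of an SCF ubiquitin ligase, rose by both routes, with 239 and 212 CPM in IVM MII and 402 and 487 CPM in IVO MII, against 69.1 and 54.1 CPM in GV (edgeR adjusted p 0.000196 and 3.76e-06). ANAPC13, a subunit of the anaphase-promoting complex that FBXO43 inhibits, fell by both routes, with 13.2 and 10.2 CPM in IVM MII and 5.23 and 6.57 CPM in IVO MII, against 52.9 and 49.2 CPM in GV (edgeR adjusted p 1.30e-05 and 1.84e-06). All these lists were drawn up with earlier results of these data known.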

How the data were processed

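The authors deposited raw counts per gene for 6 libraries. Per the file headers, they came from featureCounts 2.0.1, which counted fragments in exons and summed them by gene with the macFas5 RefSeq annotation. It did not use strand. fastp, FastQC, Bowtie2 and SAMtools are named in the submitters' processing notes. No molecular identifiers are named. Since Bowtie2 makes no spliced alignments, fragments that cross exon junctions may be undercounted. CPM used column totals. Tests used edgeR 4.0.16 in R 4.3.3 (quasi-likelihood, TMM, filterByExpr, all 6 libraries, group as the term), with DESeq2 1.42.0 and limma 3.58.1 as alternatives, and were tested on simulated data. The fit kept 15815 genes and had 3 residual degrees of freedom. Symbols were matched to the RefSeq table of a newer assembly (names only), which held all 17 members.

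The members and lists were chosen with earlier results of these data known. Named members were those of highest level, largest ratio, smallest difference between routes, nearness to a threshold, or list membership, which together covered all 17. Named list genes came from the 3 of lowest adjusted p in each direction. No sequences are shown. Nothing states that replicates came from separate animals, so p-values measure the spread between these libraries. Replicate numbers were not found to pair libraries. Values of some genes near the thresholds or related to members are not reported here.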

Additional observations from a re-analysis of the deposited data

How the results depend on the processing

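No member was called between IVM MII and IVO MII under RLE factors, library totals, either other low-count filter, DESeq2, limma-voom or the 4 libraries alone. Log2 fold changes changed sign, all uncalled, with library totals for UGDH (0.070), FBXO43 (0.12), CPEB2 (0.11) and PRKACB (0.16). With replicates left out in turn, values that changed sign ran from -0.47 to 0.19 for UGDH, -0.13 to 0.040 for PRKACB, -0.032 to 0.39 for RAP2C, -0.72 to 0.16 for PIM1 and -0.16 to 1.06 for MED30. Members called ran from 0 to 1 in either direction when replicates were left out, where the lone library is assumed to vary like the others. The cause was not tested. Between the routes, 2260 of all genes were called higher in IVM MII and 1635 were called lower. Lower calls were 894 with library totals and 1051 with at least 10 CPM in 2 libraries, where fewer genes were tested. Leave-one-out gave 1327 to 2094 higher and 753 to 1496 lower, with both lowest counts without IVM MII replicate 2. Over GV, the 10 CPM filter left 2268 higher and 2352 lower calls for IVM MII, and 2727 and 2859 for IVO MII. Leave-one-out gave 2580 (without GV replicate 2) to 4452 higher and 2752 to 4264 lower for IVM MII. The number of members was 11 with TMM, 10 with RLE (9 of the 17), 128 at a ratio of 3, 5 at a ratio of 5, 11 at 20 CPM, and 18 to 108 without a replicate. A replicate block called 0 members and 2180 genes higher and 1545 lower between the routes, and changed no member's call. Over GV it gave 3982 higher and 3748 lower calls for IVM MII, and 4345 and 4670 for IVO MII. Same-numbered libraries correlated at -0.114 (IVM MII with IVO MII), -0.144 (IVM MII with GV) and 0.178 (IVO MII with GV). Pairing with crossed numbers, chosen after seeing the data, called 1 member lower, 2955 genes higher and 2294 lower between the routes, and 4159 and 4725 in IVM MII over GV. Of the alternative counts for the gene lists, 817 stayed within 1.5 times of the reported count and 107 moved further.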

Other observations

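The 2 genes that met the thresholds but were left out by name were LOC102132314, which the RefSeq gene table of a later assembly names as H2AX, a histone variant of the DNA damage response, and LOC102119307. LOC102132314 had 22.6 and 13.3 CPM in IVM MII and 11.3 and 16.0 CPM in IVO MII, against 2.01 and 2.38 CPM in GV. LOC102119307 had 16.3 and 19.3 CPM in IVM MII and 13.7 and 17.9 CPM in IVO MII, against 2.77 and 3.17 CPM in GV. Neither was tested, since the rule used these values.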
